A study of Arabidopsis thaliana with 60 samples.

Results

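The glutathione S-transferases of the tau class (GSTU) and the phi class (GSTF) were followed across a time course of immune elicitation in Arabidopsis thaliana leaves. The members are the 34 listed locus identifiers, 24 tau and 10 phi genes, of 25036 genes in the count table. Of these, 33 had a row and 24 (17 tau and 7 phi genes) had enough counts to be tested. The counts of GSTF14 (AT1G49860) were not analysed here, and it enters only the promoter windows below. The plants were 4-week-old adults of the Col-0 ecotype with the genotype dde2 ein2 pad4 sid2 Ed-AvrRpt2, so every group, controls included, lacks the same 4 defence signalling genes and carries the same inducible transgene. DDE2 serves jasmonate synthesis, EIN2 ethylene signalling and SID2 salicylic acid synthesis, and PAD4 is a lipase-like immune regulator. Leaves were infiltrated with Mock solution (ethanol at 0.1%), with flg22 at 1 µM, with estradiol at 10 µM plus ethanol at 0.1% (Ed), or with flg22 and Ed together (flg22+Ed), and collected 60, 120, 180 or 300 min later. For flg22 alone no ethanol is listed, so comparisons that involve this group also differ in the listed ethanol, which cannot be told apart from the elicitor. Leaves at 0 min were untouched. Estradiol induces AvrRpt2, a bacterial effector protease sensed inside the cell, and flg22 is a flagellin peptide sensed at the cell surface. Leaves of a pair of plants were pooled for each library, and RNA was measured by Smart-3SEQ, which sequences the 3′ ends of transcripts. The 60 libraries form 20 groups of 3, with 1 library from each of 3 independent experiments per the design text.

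Glutathione S-transferases join the tripeptide glutathione to reactive or electrophilic molecules, or bind such molecules without reacting, and the products are often moved into the vacuole. The tau and phi classes are the large plant-specific classes. They are known from herbicide detoxification, from oxidative stress and pathogen responses, and from the synthesis of sulfur-containing defence compounds such as camalexin and glucosinolates.

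Levels are in CPM, the counts of a gene relative to the total of its library after scaling by TMM factors, and a value ± another is a mean ± SD of 3 libraries, or of 12 for untouched leaves. The log2 fold changes are from edgeR's quasi-likelihood F test over 16763 genes. The value after ± on a log2 scale is worked back from the F statistic and is not an estimated standard error. A call means a Benjamini-Hochberg adjusted p under 0.05 over all genes tested in that comparison, and every adjusted p below is from this test. A call is said to hold when it also passed in every fit that left out 1 library and in the fit without 4 libraries described next. In each sentence with a value per library the order is experiment 1, 2 and 3. Each called difference named below had the same direction in all 3 experiments unless the text gives another number.

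The total per library ran from 1458920 to 4673355 counts, so that 3 counts equal 0.604 to 2.20 CPM. Clock genes set 4 libraries of experiment 2 apart, those labelled Mock 0, Mock 60, Mock 300 and flg22 0 min. LHY, a clock gene expressed in the morning, stood there at 106, 250, 316 and 4.65 CPM. In experiments 1 and 3 the same labels gave 284 and 391, 158 and 149, 3.07 and 1.54, and 268 and 359 CPM. TOC1, a clock gene expressed in the evening, stood at 11.1, 1.44, 1.18 and 40.2 CPM in the 4, and at 0.947 and 1.76, 8.17 and 13.1, 23.2 and 23.0, and 1.70 and 1.02 CPM in experiments 1 and 3. For both genes the library labelled Mock 300 min was thus near the 0 min libraries of the other experiments, and that labelled flg22 0 min nearer their Mock 300 min libraries. Likewise, the library labelled Mock 60 min was nearer their 0 min libraries, and that labelled Mock 0 min nearer their Mock 60 min libraries. Whether labels were exchanged was not tested. The libraries labelled Mock 60 and Mock 300 min of experiment 2 are controls in all Mock comparisons of those times, so that results of tests are given with and without the 4. Levels and summed levels, those of untouched leaves included, are given with all libraries only, the 4 among them. Of the 4 leaf mesophyll markers, RBCS1A, RCA, LHCB2.1 and CA1, the summed level was 3702 to 30955 CPM over all libraries, and the 4 root markers together reached 1.76 CPM at most. At 300 min the summed mesophyll level was 19026 to 24544 CPM in Mock, 8005 to 13756 with flg22, 12317 to 14882 with Ed and 3702 to 5325 with flg22+Ed. With flg22 and with flg22+Ed 4 of the 4 were called lower than Mock, and with Ed 3 of 4. The 2 epidermis markers summed to 211 to 370 CPM with Mock, 213 to 256 with flg22, 80.3 to 158 with Ed and 128 to 157 with flg22+Ed, with CER1 called lower in each and FDH with Ed alone. The 3 guard cell markers summed to 53.7 to 69.3, 37.2 to 49.9, 41.8 to 49.7 and 36.4 to 47.6 CPM, and the 2 phloem markers to 345 to 431, 279 to 337, 300.4 to 410 and 294 to 331 CPM, with 0 of either list called. The part of these markers in the changes below was not tested, and fewer cells of a type and less RNA per cell cannot be told apart in whole leaves.

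With all 60 libraries members were called in both directions, as were genes over the whole table. Over the 12 comparisons of an elicitor with Mock, which share the Mock libraries of each time, 14 of the 24 tested members were called higher in at least 1, and 6 were called lower in at least 1. Over all tested genes the shares were 31.8% and 34.6%. The counts include members with no call that held, such as GSTU6 and GSTU5. GSTU4, GSTU8, GSTU9, GSTU10, GSTU11 and GSTU24 held at most 1.18 CPM in untouched leaves and were tested because of groups where they were high. Members that stayed low throughout were not tested, so the counts of members called higher lean upward. The 14 were GSTF2 (AT4G02520), GSTF6 (AT1G02930), GSTF7 (AT1G02920), GSTF8 (AT2G47730), GSTF10 (AT2G30870), GSTU4 (AT2G29460), GSTU6 (AT2G29440), GSTU8 (AT3G09270), GSTU9 (AT5G62480), GSTU10 (AT1G74590), GSTU11 (AT1G69930), GSTU13 (AT1G27130), GSTU17 (AT1G10370) and GSTU24 (AT1G17170). The 6 were GSTF11 (AT3G03190), GSTU5 (AT2G29450), GSTU16 (AT1G59700), GSTU18 (AT1G10360), GSTU20 (AT1G78370) and GSTU27 (AT3G43800). GSTF9 (AT2G30860), GSTU1 (AT2G29490), GSTU7 (AT2G29420) and GSTU19 (AT1G78380) were called in none.

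**Figure D1:**
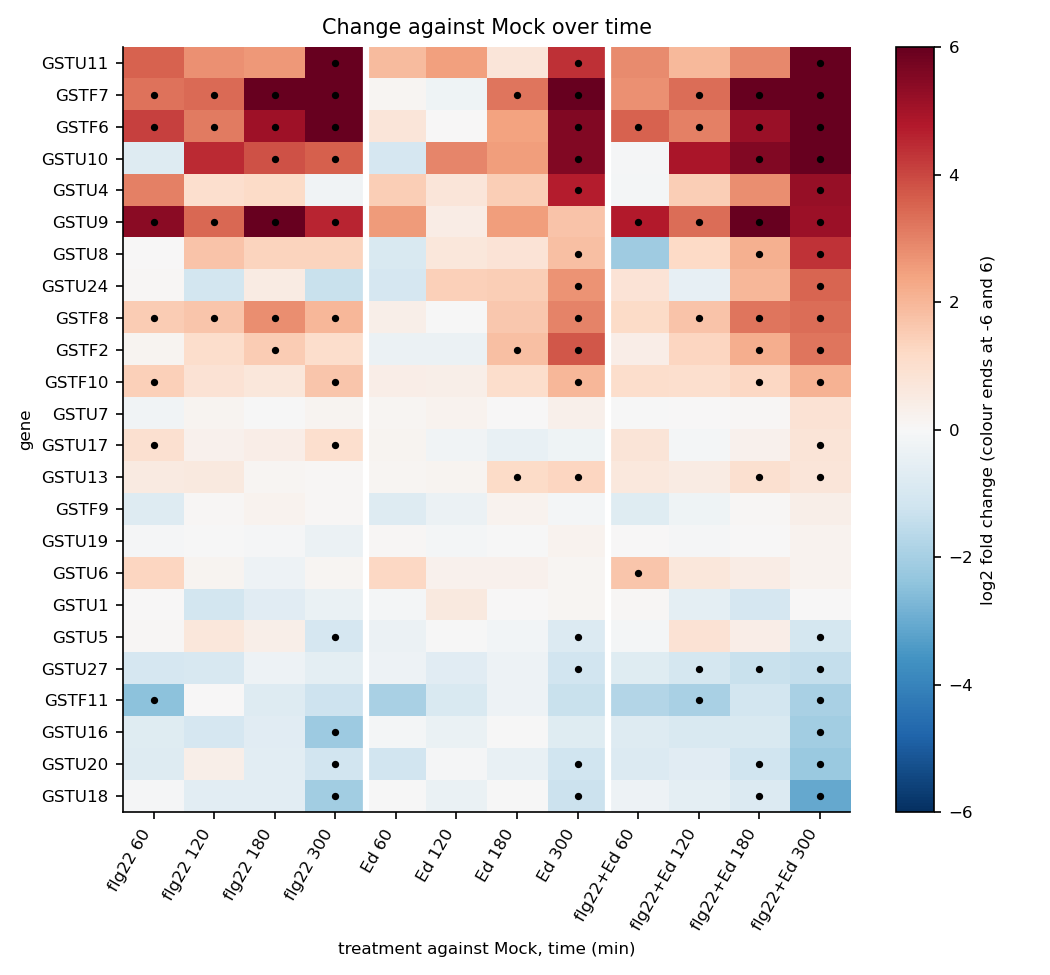
Log2 fold change against Mock (colour, from -6 in blue to 6 in red) for the 24 tested members in flg22, Ed and flg22+Ed leaves at 60, 120, 180 and 300 min, with a dot where the adjusted p was under 0.05. Members with dots in red rows include GSTF6, GSTF7 and GSTU9 in the flg22 columns from 60 min, whereas the Ed columns hold no dots before 180 min.

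With flg22 alone members were called from 60 min on. At 60 min 6 members were called higher, where 6.45% of all tested genes were, and 1 was lower (3.39%). At 120 min 4 were higher (7.43%) and 0 lower (2.8%). At 180 min 6 were higher (14%) and 0 lower (8.17%), and at 300 min 8 were higher (19.2%) and 4 lower (20.9%). Without the 4 libraries of experiment 2 these counts became 3 and 0, 5 and 1, 7 and 0, and 8 and 3. Over all genes that fit called 634 higher and 196 lower, 1802 and 977, 2949 and 1889, and 3466 and 3295 of 16926. The call of GSTU9 held at all 4 times. At 180 min those of GSTF6, GSTF7 and GSTF8 held as well, and at 300 min those of GSTF6, GSTF7, GSTF8, GSTF10, GSTU9, GSTU11, GSTU16 and GSTU18. At 60 min the calls of GSTF7, GSTF8, GSTF10, GSTF11 and GSTU17 ended without Mock replicate 2, with adjusted p of 0.153, 0.284, 0.286, 0.577 and 0.19, and in 1 to 4 further fits each. At 120 min those of GSTF7 and GSTF8 ended without Mock replicate 1 (0.0994 and 0.191) or 2 (0.0978 and 0.175), and that of GSTF8 also without flg22 replicate 1 (0.0578) or 3 (0.0561). At 180 min GSTU10 and GSTF2 ended in 3 and 4 of 6 fits, with adjusted p from 0.1 to 0.131 and from 0.0544 to 0.182.

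With Ed alone members were called from 180 min on. At 60 min 0 members were called in either direction (0.00597% of all genes) and 5 had an unadjusted p under 0.05, and at 120 min 0 were called (0.0835%) and 0 had such a p. DESeq2 also called 0 members at both times. At 180 min 3 were higher (4.03%) and 0 lower (0.00597%), and none of the 3 calls held. Without Ed replicate 1, Mock replicate 1 or Mock replicate 2 the adjusted p was 0.218, 0.245 and 0.185 for GSTF7 and 0.128, 0.0975 and 0.0869 for GSTU13. At 300 min 11 were higher (14.7%) and 4 lower (9.46%), of which 8 and 1 held. Without the 4 libraries the counts were 6 and 0 at 180 min and 10 and 3 at 300 min. Over all genes that fit called 844 higher and 24 lower of 16926 at 180 min, and 2319 and 1350 at 300 min.

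With flg22+Ed the count of members was largest at 300 min, when 13 were higher (27.9% of all genes) and 6 lower (30.5%). Of these, 11 and 5 held, and 13 and 5 were called without the 4 libraries. Over all genes 4929 higher and 5049 lower of 16926 were called in that fit. With all libraries, at 60 min 3 members were higher (4.75%) and 0 lower (2.08%), and only GSTU9 held. At 120 min 4 were higher (9.97%) and 2 lower (4.98%), again with GSTU9 alone holding. At 180 min 9 were higher (18%) and 3 lower (14.5%), of which 6 and 1 held. The further calls at 180 min ended without Mock replicate 1 for GSTF10 (adjusted p = 0.134) and GSTU13 (0.0508), and without Mock replicate 2 for GSTU8 (0.0815). GSTF10 also ended without flg22+Ed replicate 3 (0.0558), and GSTU13 without flg22+Ed replicate 2 or 3 (0.0522 and 0.061). At 60 min GSTF6 ended without Mock replicate 1 (0.0724) or 2 (0.154) or flg22+Ed replicate 3 (0.065). At 120 min GSTF6, GSTF7 and GSTF8 ended without Mock replicate 1 or 2 or flg22+Ed replicate 3 (0.0713 to 0.165), GSTF11 without any 1 of 6 libraries (0.0541 to 0.135) and GSTU27 in 3 fits (0.0539 to 0.301). The median log2 fold change of the 24 tested members at 300 min was 0.80, beside -0.08 over all genes tested, and it was 0.09 with flg22 and 0.81 with Ed. These medians include the members that were tested because of groups where they were high, so they lean upward too.

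With flg22+Ed at 300 min GSTF6 and GSTF7 gained the most CPM over Mock of the members. They are phi genes that lie next to each other on chromosome 1, and GSTF6 is known to make the glutathione conjugate on the way to the defence compound camalexin. Their coding sequences are 94.3% identical, but the last 200 bases of their transcripts share no run longer than 8 bases, and the last 400 none longer than 26. In untouched leaves the 12 libraries held GSTF6 between 1.28 and 28.4 CPM with a median of 5.77, and GSTF7 between 0.852 and 8.49 with a median of 2.07. With flg22, GSTF6 stood at 685, 451 and 898 CPM at 60 min, at 2008, 1977 and 1543 at 120 min, at 3231, 3763 and 3955 at 180 min and at 3424, 5026 and 4233 at 300 min. With Mock it stood at 18.3, 3.6 and 99.9, at 49.1, 51.6 and 537, at 12.5, 96.6 and 218, and at 19.3, 5.31 and 100 CPM at the same times. Every flg22 library lay above every Mock library of its time. GSTF6 thus had a log2 fold change of 5.08 ± 1.02 at 180 min, with an adjusted p of 0.000186. At 300 min it was 6.69 ± 1.10, with an adjusted p of 5.00e-06. At 60 and 120 min GSTF6 was called as well, but at 60 min without Mock replicate 2 the adjusted p was 0.0623, and at 120 min it was 0.159, 0.154 and 0.0558 without Mock replicate 1, Mock replicate 2 or flg22 replicate 1.

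With Ed, GSTF6 was at 26.7, 35.5 and 134 CPM at 60 min and at 211, 85 and 350 CPM at 120 min, within or near the Mock values. It then reached 881, 499 and 368 CPM at 180 min and 2973, 1465 and 1302 CPM at 300 min, where the log2 fold change was 5.55 ± 1.04 (adjusted p = 7.22e-05). With flg22+Ed it stood at 3140, 4748 and 3795 CPM at 180 min and at 6269, 5953 and 5412 CPM at 300 min, above every other library at 300 min, with a log2 fold change against Mock of 7.17 ± 1.12 (adjusted p = 6.04e-07). Without the 4 libraries the 3 values at 300 min were 6.21 (flg22), 5.03 (Ed) and 6.66 (flg22+Ed), each still called.

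GSTF7 had the same shape at lower levels. At 180 min it was at 3.7, 12.7 and 39.4 CPM with Mock, at 1063, 1285 and 1801 with flg22, at 270.3, 104 and 123 with Ed and at 1099, 2232 and 1388 with flg22+Ed. All 3 treated groups lay above Mock, with Ed between Mock and the others. At 300 min it was at 5.03, 1.48 and 18.4 CPM with Mock, at 738, 1335 and 1239 with flg22, at 1192, 539 and 413 with Ed and at 2799, 2211 and 2388 with flg22+Ed. The flg22 and Ed groups overlapped, and both lay apart from Mock and from flg22+Ed. Against Mock the log2 fold changes were 7.15 ± 1.10, 6.52 ± 1.07 and 8.31 ± 1.15 (adjusted p = 1.62e-06, 9.07e-06 and 5.18e-08). The ratio of GSTF6 to GSTF7 counts lay between 1.77 and 5.51 as a group mean. The tags are 3′ ends, so CPM is not expected to scale with transcript length, and levels of different genes are set side by side on that ground.

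The 250 bases before the annotated start of GSTF7 are shown because it had the largest fitted rise of the phi genes. Those of GSTU8 and GSTU10, both highest with flg22+Ed at 300 min and tested because of such groups, are shown for comparison. The sequences were read from the RefSeq annotation of TAIR10.1, run 5′ to 3′ on the strand of the gene, and have in capitals each match to TTGACC or TTGACT on either strand (the W-box, a core that WRKY factors are known to bind).
GSTF7 promoter (chr1:659981-660230, minus strand): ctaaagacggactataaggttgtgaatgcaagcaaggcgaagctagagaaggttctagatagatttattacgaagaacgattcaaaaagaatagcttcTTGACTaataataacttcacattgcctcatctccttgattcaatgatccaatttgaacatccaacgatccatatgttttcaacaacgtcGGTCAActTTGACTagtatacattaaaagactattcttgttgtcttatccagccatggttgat
GSTU8 promoter (chr3:2849687-2849936, minus strand): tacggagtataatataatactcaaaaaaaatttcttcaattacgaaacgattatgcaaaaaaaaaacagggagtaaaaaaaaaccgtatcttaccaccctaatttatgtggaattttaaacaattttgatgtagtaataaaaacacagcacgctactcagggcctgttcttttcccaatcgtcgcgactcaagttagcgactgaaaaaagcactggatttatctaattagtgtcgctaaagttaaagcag
GSTU10 promoter (chr1:28024861-28025110, minus strand): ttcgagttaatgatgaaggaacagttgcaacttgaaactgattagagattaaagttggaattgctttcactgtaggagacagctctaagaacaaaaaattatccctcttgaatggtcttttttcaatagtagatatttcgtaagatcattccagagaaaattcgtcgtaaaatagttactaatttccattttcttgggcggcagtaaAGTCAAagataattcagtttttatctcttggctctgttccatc
The GSTF7 window holds 3 W-box matches, which start at bases -152, -63 and -55 from the start of the gene, and does not hold TGACG, the core that TGA factors are known to bind. The GSTU8 window holds neither motif while GSTU10 holds 1 W-box match. Over all members, TTGACC or TTGACT lay in 20 of 34 windows (58.8%) and in 7065 of 24877 annotated windows of the same length (28.4%). TGACG on either strand lay in 14 members (41.2%) and in 4719 of all windows (19.0%). The W-box was present in 8 of the 14 members called higher, in 1 of the 6 called lower, in 3 of the 4 called in neither direction and in 8 of the other 10, which are the 9 with too few counts and GSTF14. For TGACG these counts were 6, 2, 2 and 4.

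**Figure D2:**
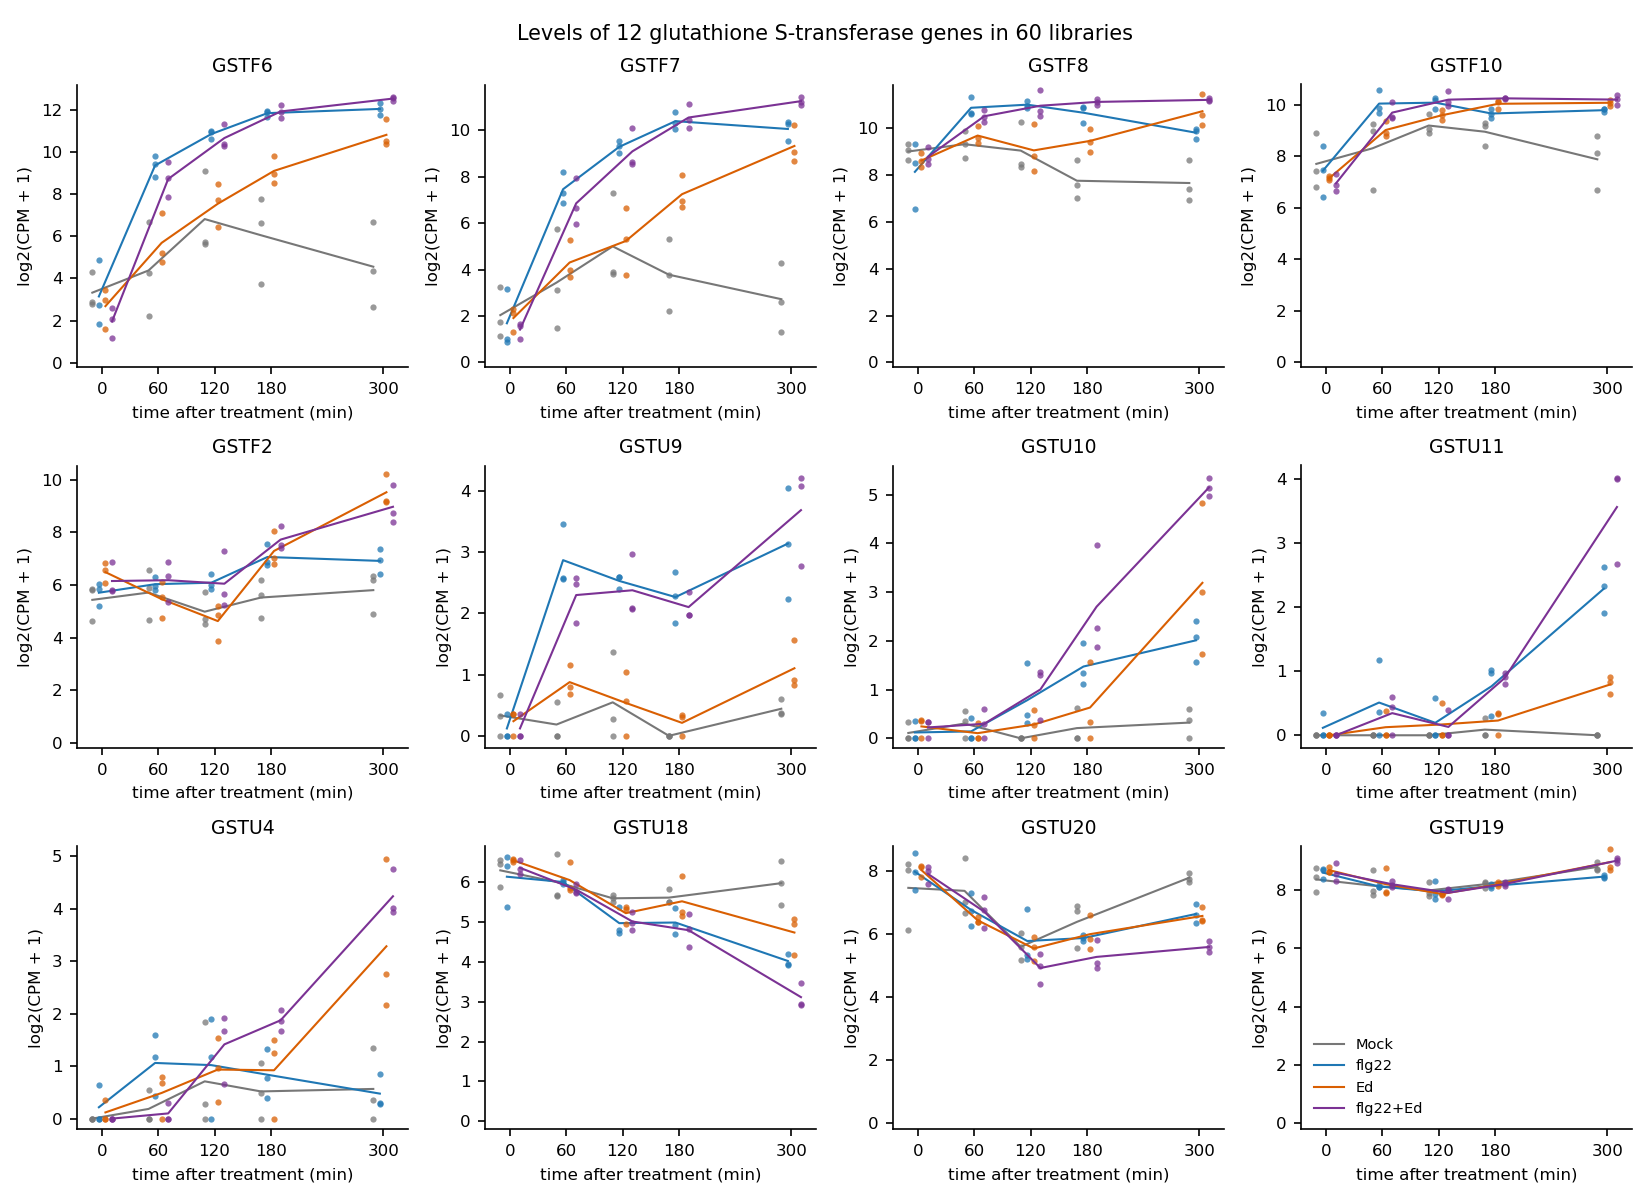
Level as log2(CPM + 1) against time after treatment for 12 members, with a point for each library, a line through the group means and a colour for each treatment. GSTF6 and GSTF7 rise steeply with flg22 and later with Ed, GSTU4 rises with Ed and flg22+Ed at 300 min, GSTU18 and GSTU20 end lowest with flg22+Ed, and GSTU19 was called in no comparison with Mock.

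GSTF8, a phi gene long used as a marker of early stress responses, was already abundant in untouched leaves, at 93.7 to 650 CPM with a median of 407. With flg22 it stood at 1576, 1619 and 2583 CPM at 60 min and at 1998, 1877 and 2319 CPM at 120 min, then lower at 1201, 1863 and 1898 CPM at 180 min and at 745, 1015 and 954 CPM at 300 min. With flg22+Ed it was at 2047, 2432 and 2229 CPM at 180 min and at 2280, 2333 and 2505 CPM at 300 min. The flg22 libraries at 300 min were thus all below those of 60 to 180 min, and the flg22+Ed libraries were not. With Ed it was at 1011, 687 and 499.8 CPM at 180 min and at 2844, 1507 and 1133 CPM at 300 min. Mock leaves held 129, 192 and 401 CPM at 180 min and 120, 399 and 170 CPM at 300 min. The log2 fold change at 300 min was 1.98 ± 0.51 with flg22, 2.99 ± 0.53 with Ed and 3.37 ± 0.54 with flg22+Ed (adjusted p = 0.00185, 3.19e-05 and 9.83e-07), and 2.69, 3.66 and 4.05 without the 4 libraries.

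GSTF10, known as ERD13 from drought, was called higher with every elicitor at 300 min. At 300 min it stood at 910, 926 and 841 CPM with flg22, at 1169, 1012 and 1094 with Ed and at 1207, 1356 and 1021 with flg22+Ed, against 282, 104 and 448 with Mock. All 3 groups lay above Mock, and every flg22 library lay below every Ed and flg22+Ed library. The log2 fold change was 1.68 ± 0.44 with flg22 (adjusted p = 0.00221) and 1.97 ± 0.45 with Ed (adjusted p = 0.000848). With flg22+Ed the adjusted p was 9.90e-05. In the fit without the 4 libraries, which include the lowest Mock value, the log2 fold changes were 1.33, 1.58 and 1.73.

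GSTF2, a phi protein known to bind indole compounds such as camalexin, answered Ed more than flg22 at 300 min. At 300 min it was at 28.5, 72 and 80.3 CPM with Mock, at 85.2, 124 and 164 with flg22, at 1198, 589 and 569 with Ed and at 422, 336 and 896 with flg22+Ed. The flg22 libraries lay just above Mock and the other treated libraries far above both. Against Mock the log2 fold change was 3.71 ± 0.57 with Ed and 3.20 ± 0.56 with flg22+Ed (adjusted p = 2.97e-06 and 4.01e-06), and flg22 was not called. Set directly against flg22, Ed was higher by 2.66 ± 0.54 (adjusted p = 0.000316). At 180 min GSTF2 stood at 25.7, 48.5 and 72.8 CPM with Mock and at 266, 110.2 and 129.9 CPM with Ed, which did not overlap. It was called there with Ed at 1.80 ± 0.53, a call that ended without Ed replicate 1 (adjusted p = 0.504), Mock replicate 1 (0.325) or Mock replicate 2 (0.159). Its close copy GSTF3, 94.5% identical in coding sequence, held 63 counts in all libraries and was not tested.

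GSTF9, which sits beside GSTF10, was at 172 to 958 CPM in untouched leaves and was called in no comparison with Mock, with log2 fold changes from -0.79 to 0.34. Its level differed more between times than between treatments. The group means were 153 to 201 CPM at 120 min in the Mock and treated leaves and 804 to 1105 CPM at 300 min. GSTF11, known from the synthesis of methionine-derived glucosinolates, fell with flg22+Ed at 300 min, from 15.1, 19.5 and 13.8 CPM with Mock to 3.76, 2.71 and 5.92 CPM. The groups did not overlap, and the log2 fold change was -1.94 ± 0.57 (adjusted p = 0.00356). GSTF12, known as TT19 and needed for anthocyanin storage, held 25 counts over all libraries.

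Of the tau genes that rose, GSTU4, GSTU8, GSTU9, GSTU10, GSTU11 and GSTU24 did not exceed 1.18 CPM in untouched leaves. GSTU9 was at 0 to 0.588 CPM in untouched leaves and at 0, 0 and 0.467 CPM in Mock leaves at 60 min. With flg22 it stood at 9.99, 4.88 and 4.98 CPM at 60 min, at 2.59, 5.34 and 3.86 CPM at 180 min and at 3.67, 7.79 and 15.5 CPM at 300 min. At 180 min the Mock libraries held 0 counts. Set against 3 counts over the Mock group, the flg22 level was 14.4-fold higher and the flg22+Ed level 12.9-fold higher. These folds leave out the counting error of the treated libraries, and the intervals below cover counting error only. At 300 min the Mock libraries held 3 counts together, and flg22+Ed stood at 17.4, 5.81 and 15.9 CPM. The ratio to Mock was 25.5 with flg22 (95% exact interval 8.49 to 125) and 41.7 with flg22+Ed (14.0 to 204). With Ed it was at 1.97, 0.781 and 0.872 CPM at 300 min and was not called (adjusted p = 0.181). In the direct test the log2 difference of Ed from flg22 was -4.26 ± 0.82 after 180 min (adjusted p = 0.000247). After 300 min it was -2.85 ± 0.57 (adjusted p = 0.0003), and both calls held.

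GSTU10 and GSTU8 rose furthest with flg22+Ed. At 180 min GSTU10 was at 0, 0 and 0.547 CPM with Mock and at 3.82, 14.7 and 2.64 CPM with flg22+Ed, a call that held (adjusted p = 0.000189). It had 2 counts in the Mock libraries at 300 min. With flg22 it stood at 1.95, 3.21 and 4.28 CPM, with Ed at 27.5, 7.03 and 2.33 CPM and with flg22+Ed at 34, 30.6 and 39.3 CPM. The flg22+Ed libraries were above all the others, and the Ed libraries were far apart. The ratio to Mock was 13.7 (3.54 to 117), 54.7 (14.9 to 457) and 156 (43.0 to 1295), with the flg22 call ending without Mock replicate 1 (adjusted p = 0.0547). GSTU8 stood at 0.559, 1.18 and 0.512 CPM with Mock, at 0.865, 2.52 and 2.67 with flg22, at 4.77, 2.6 and 1.16 with Ed and at 14.3, 12 and 23.4 with flg22+Ed. Only the flg22+Ed libraries stood clear of all others, and against Mock their log2 fold change was 4.35 ± 0.60 (adjusted p = 5.24e-08). The Ed call of GSTU8 (adjusted p = 0.0422) was lost in 5 of 6 fits that left out a library of either group, with adjusted p from 0.0572 to 0.323. The 5 left out Ed replicate 1 or 2 or any of the 3 Mock replicates.

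GSTU11 was at 0 counts in the Mock libraries at 300 min. It stood at 5.19, 2.75 and 4.01 CPM with flg22, at 0.561, 0.781 and 0.872 with Ed and at 15, 15.1 and 5.38 with flg22+Ed. Set against 3 counts over the Mock group, the levels were 11.9-fold, 2.19-fold and 34.6-fold higher, without the counting error of the treated libraries. The Ed call (adjusted p = 0.0336) ended when any 1 of the 6 libraries was left out, with adjusted p from 0.0572 to 0.105, and without the 4 libraries (0.0927). The log2 difference of Ed from flg22 was -2.38 ± 0.64 (adjusted p = 0.00871).

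GSTU4 and GSTU24 were called higher with Ed and with flg22+Ed and were not called with flg22. GSTU4, in the array of 7 tau genes on chromosome 2, was at 0.279, 0 and 1.54 CPM with Mock at 300 min, at 0.216, 0.229 and 0.802 with flg22, at 29.8, 5.73 and 3.49 with Ed and at 15.3, 14.3 and 26.1 with flg22+Ed. The flg22 and Mock libraries overlapped, and every Ed and flg22+Ed library was above them. Ed was higher than flg22 by 4.91 ± 0.92 (adjusted p = 0.000124), and flg22+Ed than flg22 by 5.43 ± 0.91 (adjusted p = 6.39e-05). GSTU24 gave 1.12, 0.886 and 2.05 CPM with Mock, 0.216, 0.688 and 0.535 with flg22, 18.2, 4.69 and 2.62 with Ed and 12.4, 14.7 and 16.7 with flg22+Ed. Its flg22 libraries all lay below Mock and its Ed and flg22+Ed libraries all above, with Ed above flg22 by 4.07 ± 0.78 (adjusted p = 0.000142). Against Mock the Ed call of GSTU24 ended without Ed replicate 1 (adjusted p = 0.218), and that of GSTU4 held. Without the 4 libraries the log2 fold changes of GSTU4 against Mock were 4.05 with Ed and 4.58 with flg22+Ed, in place of 4.69 and 5.21.

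GSTU13, known from the indole glucosinolate branch of defence, was at 57.8, 40.7 and 54.8 CPM with Mock at 300 min, at 60.1, 50.7 and 49.2 with flg22, at 111, 124 and 143 with Ed and at 88.3, 73.2 and 90.9 with flg22+Ed. The Ed libraries were the highest and flg22 overlapped Mock. The Ed change was 1.30 ± 0.31 (adjusted p = 0.00122), and Ed exceeded flg22 by 1.24 ± 0.30 (adjusted p = 0.0027). With flg22+Ed the call (0.72 ± 0.30, adjusted p = 0.0391) ended without the 4 libraries (0.129) and without Mock replicate 2 or 3 or flg22+Ed replicate 1 or 3 (0.0576 to 0.149). At 180 min GSTU13 was at 45.8, 46.3 and 52 CPM with Mock and at 128, 89 and 107 CPM with Ed, with no overlap.

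GSTU17, known as ERD9, went the other way. It was at 161, 278 and 243 CPM with Mock at 300 min, at 458, 434 and 465 with flg22 and at 121, 162 and 281 with Ed. The flg22 libraries lay above all of the other 2 groups. The log2 difference of Ed from flg22 was -1.27 ± 0.31 (adjusted p = 0.00277), a call that held, whereas flg22 against Mock (0.99 ± 0.31, adjusted p = 0.009) ended without Mock replicate 1 (0.07). With flg22+Ed it was at 318, 388 and 448 CPM, and that call (0.76 ± 0.31, adjusted p = 0.0318) ended without Mock replicate 1 (0.167) or flg22+Ed replicate 2 (0.0596) or 3 (0.113).

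**Figure D3:**
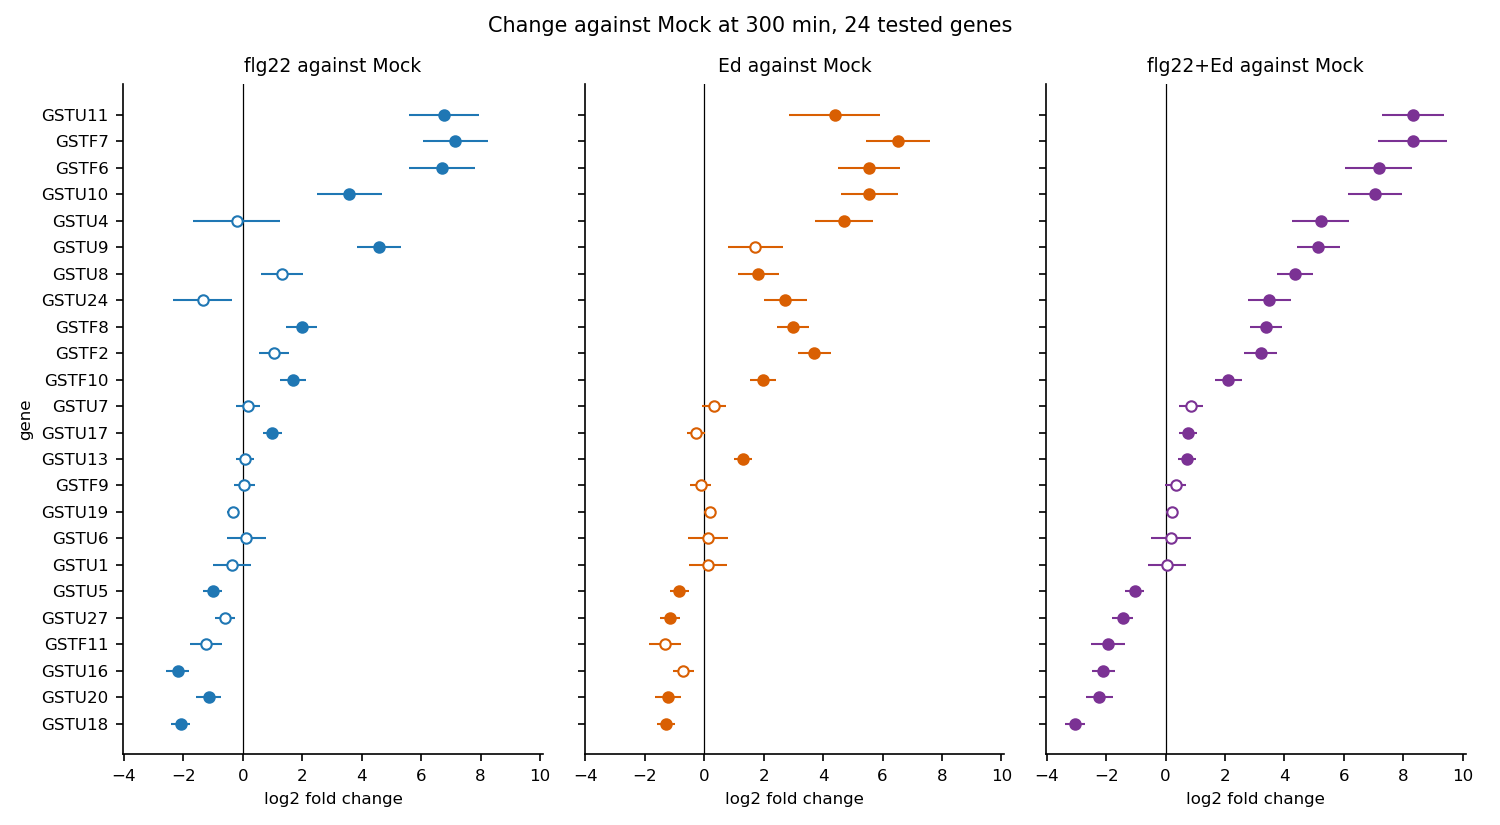
Log2 fold change against Mock at 300 min of the 24 tested members with flg22, Ed and flg22+Ed, with bars for the error worked back from F and filled points where the adjusted p was under 0.05. GSTF7 and GSTF6 lie far right with flg22+Ed and GSTU18 furthest left. The fitted points of GSTU11, which had 0 counts with Mock, are no measured folds, and GSTU4 and GSTU24 are filled for Ed and flg22+Ed but open for flg22.

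The tau genes that fell were expressed at moderate levels. GSTU18, which lies next to GSTU17, was at 62, 91.5 and 42 CPM with Mock at 300 min, at 17.3, 14.2 and 14.4 with flg22, at 17.1, 29.9 and 32.9 with Ed and at 10.1, 6.58 and 6.73 with flg22+Ed. The 3 groups were each below Mock and flg22+Ed was lowest. The log2 fold changes were -2.09 ± 0.32, -1.30 ± 0.31 and -3.05 ± 0.34 (adjusted p = 1.15e-06, 0.00131 and 3.62e-10), and they were -1.73, -0.98 and -2.71 without the 4 libraries. At 180 min it was at 55.8, 44.7 and 44.3 CPM with Mock and at 35.8, 27.2 and 19.7 CPM with flg22+Ed. That call, between groups with no overlap, ended in 4 fits without a library (Mock replicate 1 or 2, flg22+Ed replicate 2 or 3, adjusted p from 0.0557 to 0.213), and with DESeq2 (0.0579) or RLE factors (0.0615). GSTU17 and GSTU18 overlap by 71 bases on the same strand in this annotation, so tags there could be given to either, and they moved in opposite directions with flg22 at 300 min.

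GSTU20, known from glucosinolate synthesis and as a partner of the jasmonate-conjugating enzyme JAR1, was at 249, 217 and 203 CPM with Mock at 300 min. It was at 123, 97 and 81.8 CPM with flg22, at 86.2, 85.7 and 116 with Ed and at 42, 53.8 and 47.1 with flg22+Ed. The treated groups were each below Mock, and flg22+Ed was below both single treatments. With flg22+Ed the log2 fold change was -2.23 ± 0.44 (adjusted p = 3.33e-05), and the call held. With flg22 (-1.15 ± 0.43, adjusted p = 0.0281) it ended without Mock replicate 1 or flg22 replicate 2 or 3 (0.0767 to 0.105) and with library sizes alone (0.0547). With Ed (-1.22 ± 0.43, adjusted p = 0.0315) it ended without Ed replicate 1 or 2 or Mock replicate 1 or 2 (0.0658 to 0.124). At 180 min it was at 119, 46.1 and 105 CPM with Mock and at 56.1, 29.4 and 32.9 CPM with flg22+Ed. The groups overlapped, and the call (adjusted p = 0.0333) ended without Mock replicate 1 or 3 or flg22+Ed replicate 2 or 3 (0.0892 to 0.168).

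GSTU16 fell with flg22 and with flg22+Ed. It was at 36, 58.2 and 31.7 CPM with Mock at 300 min, at 11, 7.34 and 9.09 with flg22, at 24.1, 31 and 22.4 with Ed and at 12, 5.03 and 11.8 with flg22+Ed. The Ed libraries lay between the others. The log2 fold change was -2.20 ± 0.39 with flg22 and -2.10 ± 0.39 with flg22+Ed (adjusted p = 1.44e-05 and 1.07e-05). With Ed it was -0.71 ± 0.36 (adjusted p = 0.156), and Ed exceeded flg22 by 1.49 ± 0.38 (adjusted p = 0.00425). GSTU27 with flg22+Ed was at 8.51, 14 and 6.24 CPM at 180 min against 20.8, 20.7 and 27.9 with Mock, and at 12.9, 12.4 and 12.9 CPM at 300 min against 27.7, 38.4 and 38.9. Both drops held, at -1.34 ± 0.36 and -1.45 ± 0.34 (adjusted p = 0.00346 and 0.000325). With Ed it was at 23.6, 13.8 and 9.31 CPM at 300 min, and that call (-1.16 ± 0.33, adjusted p = 0.00824) ended without Ed replicate 3 (0.0681).

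GSTU5 was called lower with each elicitor at 300 min, but its Mock libraries were at 113, 296 and 116 CPM, and the high one is that of experiment 2. The treated libraries were at 72.2 to 104 CPM. Without Mock replicate 2 the adjusted p was 0.348 with flg22, 0.699 with Ed and 0.257 with flg22+Ed, and without the 4 libraries the log2 fold changes were -0.36, -0.23 and -0.42. The flg22 call also ended without flg22 replicate 3 (0.0538), and the Ed call without any 1 of the Ed libraries (0.0758 to 0.128). With flg22+Ed at 120 min GSTU5 was not called with all libraries (0.85, adjusted p = 0.0643). Without the 4 libraries it was called higher there (0.84, adjusted p = 0.0105).

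GSTU19 had the highest median of the tau genes in untouched leaves, 394 CPM with a range of 241 to 481. It showed log2 fold changes of -0.34 to 0.21 over the 12 comparisons with Mock and was called in none. GSTU7 lay between -0.20 and 0.85, and without the 4 libraries it was called with flg22+Ed at 300 min (1.32, adjusted p = 0.0117). The log2 fold changes of GSTU1 lay between -1.11 and 0.60. GSTU6 was called only with flg22+Ed at 60 min (adjusted p = 0.0398). That call ended without the 4 libraries (0.138) and in 4 fits without 1 library (Mock replicate 1 or 2, flg22+Ed replicate 1 or 2, 0.0961 to 0.27). The members that were not tested, GSTU2 (AT2G29480), GSTU3 (AT2G29470), GSTU12 (AT1G69920), GSTU22 (AT1G78340), GSTU25 (AT1G17180), GSTU26 (AT1G17190), GSTU28 (AT1G53680), GSTF3 (AT2G02930) and GSTF12 (AT5G17220), held between 1 count (GSTU3) and 178 counts (GSTU26) over the 60 libraries.

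The direct comparison of the elicitors asks which members respond to 1 more than to the other. At 300 min 6 members were higher with Ed than with flg22 (9.91% of all genes) and 3 lower (7.5%). GSTF2, GSTU4, GSTU13, GSTU16 and GSTU24 were higher and GSTU9, GSTU11 and GSTU17 lower, all of them holding. The call of GSTU10 (1.97 ± 0.62, adjusted p = 0.0207, 2 of 3 experiments) ended without Ed replicate 1 (0.601), flg22 replicate 1 (0.0922) or flg22 replicate 2 (0.0719). At 180 min 1 member was higher with Ed (2.35%) and 2 lower (7.3%), of which GSTU9 held.

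Adding Ed, together with its ethanol, to flg22 raised 6 members at 300 min (6.81% of all genes) and lowered 1 (7.21%). GSTU4, GSTU8, GSTU10 and GSTU24 held, by 5.43, 3.04, 3.46 and 4.84 on the log2 scale. GSTF2 ended without flg22 replicate 1 (adjusted p = 0.0552) or flg22+Ed replicate 3 (0.0623). At 180 min 0 members were called in this comparison (0.483% higher and 0% lower over all genes), 3 had an unadjusted p under 0.05 and the replicate block called 0 as well. Adding flg22 to Ed raised 5 members (14.6%) and lowered 2 (18.8%) at 300 min. GSTU8, GSTU9 and GSTU11 rose by 2.53, 3.42 and 3.93, and GSTU16 and GSTU18 fell by 1.40 and 1.75, all of them holding. At 180 min 5 were higher (9.69%) and 1 lower (5.66%), and only GSTU9 held.

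Whether the fold of flg22 is the same with and without Ed was tested as an interaction on the log2 scale, the effect of flg22 with Ed present minus its effect without. It does not test whether gains in CPM add. At 180 min 0 members were called (0.00597% of all genes) and 1 had an unadjusted p under 0.05. At 300 min 2 were called (1.51%), GSTF7 at -5.36 ± 1.27 (adjusted p = 0.0168) and GSTF6 at -5.07 ± 1.29 (adjusted p = 0.0289). Without Ed, GSTF6 stood at 41.6 ± 51.3 CPM with Mock and 4228 ± 801 CPM with flg22, and with Ed present it went from 1913 ± 921 to 5878 ± 433 CPM when flg22 was added. These calls did not hold. GSTF7 ended without Ed replicate 1 (0.0785), Mock replicate 1 (0.0772), Mock replicate 2 (0.111) or flg22+Ed replicate 2 or 3 (0.0513 and 0.0522). GSTF6 ended without Ed replicate 1, Mock replicate 1 or 2, flg22 replicate 2 or any of the 3 flg22+Ed replicates, with adjusted p from 0.0603 to 0.137. Both passed without the 4 libraries together, at -4.87 and -4.58.

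Infiltration itself, which in this design cannot be told apart from the time of day, also moved members. Against the 12 untouched libraries 3 members were higher in Mock leaves at 60 min (8.73% of all genes) and 0 lower (0.728%). At 120 min 4 were higher (13.7%) and 5 lower (6.92%), at 180 min 4 were higher (8.75%) and 5 lower (5.58%), and at 300 min 1 was higher (4.49%) and 0 lower (0.453%). The fit without the 4 libraries gave 3 and 6, 5 and 6, 4 and 9, and 4 and 4. Over all genes it called 3416 higher and 2459 lower, 3580 and 2423, 2816 and 1963, and 2691 and 2260 of 16926. At 120 min GSTF6 and GSTF7 rose by 4.87 ± 0.61 and 4.33 ± 0.63, GSTF10 by 1.80 ± 0.31 and GSTU17 by 1.38 ± 0.22, from 336 ± 80.3 to 865 ± 308 CPM. GSTU20 fell by 2.32 ± 0.39, from 247 ± 78.2 to 49.0 ± 14.4 CPM, and GSTF9 by 1.61 ± 0.30, from 593 ± 178 to 192 ± 26.8 CPM. Those 6 calls held (adjusted p from 1.79e-07 to 0.00015). In the fit without the 4 libraries the log2 fold change of GSTF7 was 5.04 at 120 min, 3.99 in place of 2.75 at 60 min and 3.27 in place of 2.57 at 180 min. That of GSTF6 was 3.59 at 60 min and 3.58 at 300 min, and that of GSTF10 was 2.02 at 60 min. The calls made at 60 and 300 min with all libraries passed in that fit as well, with adjusted p from 2.82e-10 to 4.02e-05. Mock replicate 2 of those times is among the 4. At 180 min GSTF6 and GSTF10 held, and at 60 and 300 min none did. The 3 calls at 60 min and the 1 at 300 min had their direction in 2 of 3 experiments. At 60 min GSTF6 ended without Mock replicate 3 (adjusted p = 0.925), as did GSTF7 (0.921), and GSTF10 ended without Mock replicate 1 (0.183) or 3 (0.432). At 300 min GSTF6, the 1 member called, ended without Mock replicate 1 (0.0515) or 3 (0.887).

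**Figure D4:**
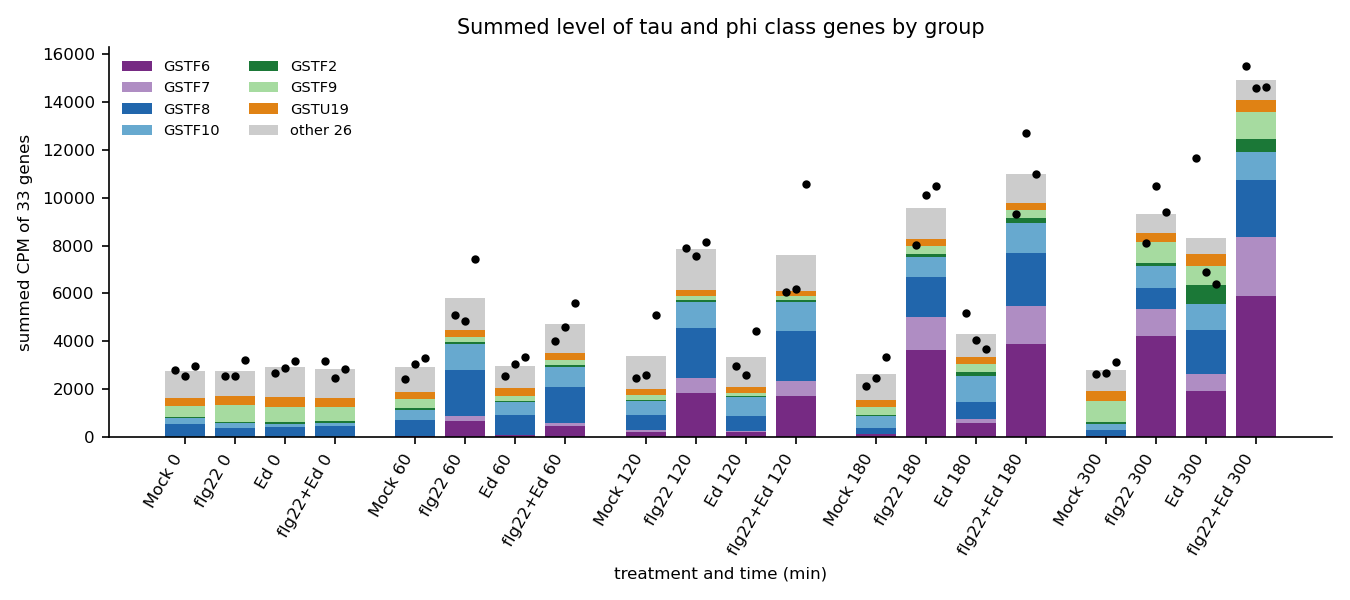
Summed CPM of the 33 members in each of the 20 groups, as stacked group means of 7 members and the remaining 26, with a black point for each library's sum. The untouched and Mock bars lie between 2630 and 3381, and the flg22+Ed bar at 300 min is the highest, with GSTF6, GSTF7 and GSTF8 as its lower 3 blocks.

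Summed over the 33 members, the family stood at 2824 ± 270 CPM in the 12 untouched libraries and at 2821 ± 285 CPM in Mock leaves at 300 min. The sum was 9324 ± 1199 CPM with flg22, 8325 ± 2895 with Ed and 14904 ± 532 with flg22+Ed at that time. The Ed libraries summed to 11655, 6911 and 6410 CPM. Among Ed libraries, that of experiment 1 was also highest for each member called higher with Ed at 300 min, except GSTU11 and GSTU13. The make-up of the sum changed as well. GSTF6 gave 0.295% of the sum in untouched leaves, and 45.1% with flg22, 22.34% with Ed and 39.4% with flg22+Ed at 300 min. The phi class gave 46.3% in untouched leaves and 87.4%, 85.0% and 91.1% in the same 3 groups. Without GSTF6 and GSTF7 the sums were 2813 ± 274 CPM in untouched leaves, 3993 ± 113 with flg22, 5697 ± 1556 with Ed and 6559 ± 212 with flg22+Ed.

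Neighbouring members ranged from closely alike to unlike. Pearson r was taken over the 20 group means of log2(CPM + 1), which share libraries and scaling. GSTF6 and GSTF7 had an r of 0.99, GSTU8 and GSTU10 one of 0.96, GSTU20 and GSTU27 one of 0.91 and GSTU4 and GSTU24 one of 0.91. GSTU4, GSTU8, GSTU10 and GSTU24 were tested because of groups where they were high and stayed low elsewhere. An r among them was thus in part set in advance and is no support for a shared response. The 8 tested pairs that lie within 5000 bases of each other had a median r of 0.11, from -0.52 to 0.99, and the other 268 pairs one of 0.13, from -0.91 to 0.96. GSTU4 and GSTU5, neighbours with 73.7% identical coding sequences, had an r of -0.52, and GSTF9 and GSTF10 one of -0.34. Close copies may share tags where the counting was not unique.

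**Figure D5:**
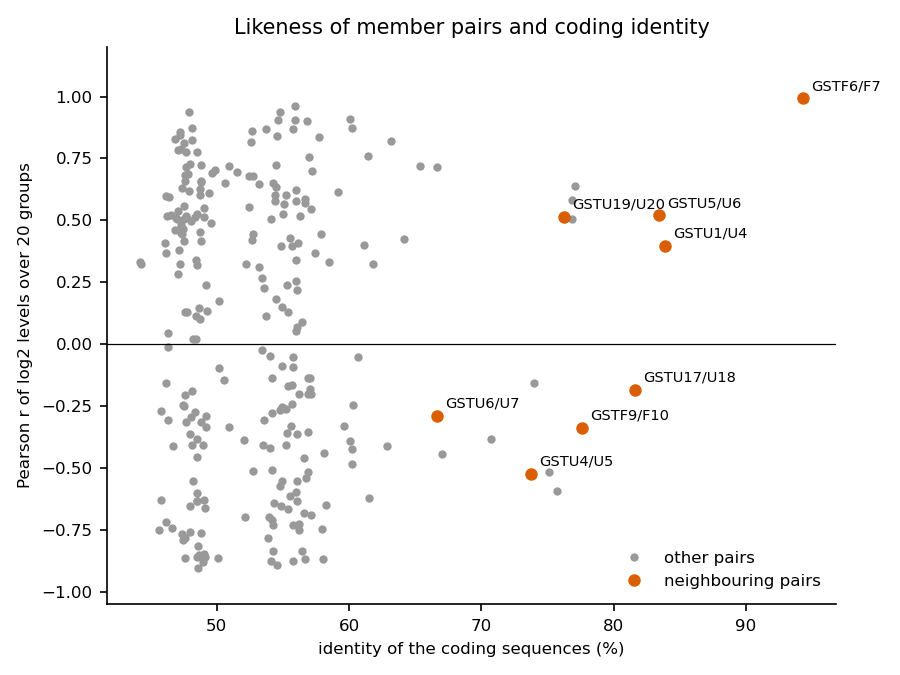
Pearson r of group levels over 20 groups against the identity of the coding sequences in percent, for the 276 pairs of tested members, with neighbouring pairs in orange. The GSTF6 and GSTF7 pair stands alone at the upper right, and 4 of the 8 neighbouring pairs lie below 0.

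Other genes of glutathione metabolism, from lists chosen with earlier results known, moved at 300 min as follows. Beside each count stand the shares of all tested genes called higher and lower at that time. They were 19.2% and 20.9% with flg22, 14.7% and 9.46% with Ed, and 27.9% and 30.5% with flg22+Ed. Without the 4 libraries 3466 and 3295, 2319 and 1350, and 4929 and 5049 of 16926 genes were called. Of 11 tested glutathione S-transferases of other classes, 1 was higher and 5 lower with flg22, 2 higher and 0 lower with Ed, and 3 higher and 5 lower with flg22+Ed. Leaving out the 4 libraries gave 1 and 5, 1 and 1, and 3 and 5. Neither Ed call held. GSTZ1 ended without Ed replicate 1 (adjusted p = 0.0987), and GSTL1 without Ed replicate 1 (0.174) or Mock replicate 2 (0.0655) and without the 4 libraries (0.0537). With flg22+Ed the dehydroascorbate reductase genes parted, DHAR2 rising by 1.54 ± 0.30 and DHAR1 and DHAR3 falling by 1.64 ± 0.26 and 1.44 ± 0.20 (adjusted p = 2.50e-05, 6.87e-07 and 5.96e-08). Of 11 genes of glutathione synthesis, reduction and turnover, 2 were higher and 5 lower with flg22, 2 and 1 with Ed, and 2 and 4 with flg22+Ed, which became 2 and 3, 2 and 1, and 2 and 5 without the 4 libraries. GGT1, an extracellular glutathione-degrading transpeptidase, and PCS1, phytochelatin synthase, rose with each elicitor. GGT1 rose by 1.93, 2.92 and 3.54 with flg22, Ed and flg22+Ed, and PCS1 by 3.13, 3.68 and 3.48. GR2, the plastid and mitochondrial glutathione reductase, fell by 2.26 ± 0.24 with flg22+Ed (adjusted p = 2.22e-10), and GSH1, the first enzyme of glutathione synthesis, by 0.73 ± 0.17 (adjusted p = 0.000259).

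The 3 vacuolar transporters of glutathione conjugates also parted. ABCC3 was at 6.53 CPM with Mock, 76.7 with Ed and 38.4 with flg22+Ed as group means at 300 min. It rose by 3.54 ± 0.60 and 2.54 ± 0.60 (adjusted p = 1.66e-05 and 0.000323). With flg22 it was not called at 300 min (adjusted p = 0.32), but at 180 min it was called higher with each elicitor. At 300 min ABCC2 fell by 1.52 ± 0.36 with flg22 (adjusted p = 0.000726) and ABCC1 by 1.16 ± 0.33 with flg22+Ed (adjusted p = 0.00233). In counts the transporters were 0 higher and 1 lower with flg22, 1 and 0 with Ed, and 1 and 2 with flg22+Ed. Of 12 genes of the xenobiotic and oxylipin response, 4 were higher and 1 lower with flg22, 4 and 0 with Ed, and 6 and 0 with flg22+Ed, which became 3 and 0, 5 and 0, and 7 and 0 without the 4 libraries. CYP81D8 is an example, rising by 5.91 ± 0.68 with Ed and 5.78 ± 0.68 with flg22+Ed (adjusted p = 1.88e-08 and 1.57e-09). At 180 min CYP81D8 was called higher with each elicitor, flg22 included. Of 7 glutathione peroxidase genes, at 300 min 2 were higher and 1 lower with flg22, 1 and 1 with Ed, and 3 and 1 with flg22+Ed. Without the 4 libraries the flg22 counts became 0 and 1. The plastid member GPX1 fell by 1.52, 0.72 and 2.22, where the Ed call did not hold. Of 4 further tau and phi genes outside the list, 0 were called at 300 min with any elicitor by either fit. At 180 min GSTF5 rose from a mean of 0.327 CPM to 3.75 with flg22 and 4.47 with flg22+Ed (3.59 ± 0.76 and 3.72 ± 0.77, adjusted p = 0.00048 and 0.000258).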

How the data were processed

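Per the labels' protocols, libraries were made by Smart-3SEQ, and per the submitters' processing notes the tools were bcl2fastq 2.17.1.14 and STAR 2.4.2a with the TAIR10 genome. How tags were assigned to genes (tool, gene models, strand setting) is not given in the sources used here, nor is any merging of reads that share a molecular identifier. The deposited table holds raw counts per gene for 60 libraries, as the authors made them. Whether tags that map to several places were counted is also not given, which bears on close copies such as GSTF2 and GSTF3.

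From the counts, genes were kept by filterByExpr (16763 of 25036), scaled by TMM factors (0.803 to 1.15) and fitted in edgeR 4.0.16 (R 4.3.3) with 1 term per group over all 60 libraries. Quasi-likelihood F tests gave p-values, adjusted by Benjamini-Hochberg over all tested genes of a comparison with a threshold of 0.05. Alternatives were DESeq2 1.42.0, RLE factors, library sizes alone, no low-count filter, the experiment as a replicate block, each library left out, and the 4 libraries left out together. Fits without a whole experiment were also run. They do not enter the calls said to hold and are not reported here. The design text says that the replicate numbers mark independent experiments, so they pair the samples. The median correlation of residuals was 0.12 within an experiment and -0.07 between experiments, and 319 of 570 pairs within an experiment exceeded 0.1. A group with 0 counts is set at 3 counts over the group for a fold that leaves out the counting error of the other group. Other low counts have exact 95% intervals. The 12 leaves at 0 min from all labels were joined as untouched. Promoter windows of 250 bases came from RefSeq TAIR10.1, and genes were matched by locus identifier. The text prints 3 of the promoter windows, and the others are not reported here.

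By rule, values in every library are given for the 3 largest called rises and falls at 180 and 300 min against Mock (with a mean of at least 5 CPM in either group and 1 direction in all 3 experiments), for the 3 members of highest mean CPM and for members called in the interaction. The other members given by library were chosen after their values were seen. The members, the lists and the rule were chosen with earlier results of these data known.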

Additional observations from a re-analysis of the deposited data

Results flagged for a closer look

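The effect of flg22 at 300 min differed between leaves with and without Ed for 2 members, by a test of the interaction in edgeR's quasi-likelihood fit. GSTF7 had a log2 interaction of -5.36 (adjusted p = 0.0168) and GSTF6 one of -5.07 (adjusted p = 0.0289), each with the same sign in 3 of 3 experiments. As given in the report, neither call passed when certain single libraries were left out, with adjusted p up to 0.111 for GSTF7 and 0.137 for GSTF6. The Mock levels at 300 min, which enter the test, ran from 1.48 to 18.4 CPM for GSTF7 and from 5.31 to 100 CPM for GSTF6.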

How the results depend on the processing

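No single member call changed its direction under the alternatives listed above. However, the 3 higher and 0 lower members of Mock against untouched at 60 min became 3 higher and 6 lower without the 4 libraries. Over all genes 1463 higher and 122 lower of 16763 became 3416 and 2459 of 16926 in that fit. Counts of members called moved by over 1.5 times as follows. Without the 4 libraries of experiment 2, flg22 against Mock at 60 min gave 3 members in place of 7, flg22+Ed against Mock at 60 min 1 in place of 3, and Mock against untouched 9 in place of 3 at 60 min and 8 in place of 1 at 300 min. The same fit gave 6 in place of 3 for Ed against Mock and for Ed against flg22, both at 180 min. All genes gave 634 higher and 196 lower in place of 1081 and 569 for flg22 against Mock at 60 min. For flg22+Ed against Mock at 60 min they gave 393 and 103 in place of 797 and 349. Against untouched at 300 min they gave 2691 and 2260 in place of 752 and 76. At 180 min they gave 844 and 24 in place of 675 and 1 (Ed against Mock). For Ed against flg22 they gave 661 and 1854 in place of 394 and 1223. DESeq2 gave 5 members for flg22+Ed against Mock at 60 min (959 higher and 373 lower over all genes). For Mock against untouched at 300 min it gave 3 (799 and 208). The replicate block gave 5 members for flg22+Ed against Mock at 60 min (946 higher and 412 lower over all genes). It also gave 5 for Ed against Mock (754 and 8) and for Ed against flg22 (598 and 1354), both at 180 min. The block ended no member call and changed no other count by that much.

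With 1 library left out, the count ranged from 1 to 9 for flg22 against Mock at 60 min, 0 to 5 at 120 min, and for Ed against Mock from 0 to 5 at 180 min and 6 to 13 at 300 min. For flg22+Ed against Mock it ranged from 0 to 6 at 60 min, 1 to 7 at 120 min and 7 to 13 at 180 min. For Mock against untouched it ranged from 0 to 9 at 60 min, 1 to 9 at 180 min and 0 to 8 at 300 min. For flg22+Ed against Ed at 180 min it was 1 to 6, for flg22+Ed against flg22 at 300 min 4 to 6, for Ed against flg22 1 to 3 at 180 min and 4 to 10 at 300 min, and for the interaction at 300 min 0 to 2. These fits have fewer samples, and the cause of the ranges was not tested. Library sizes alone moved the median of all genes by over 0.1 on the log2 scale in 9 comparisons, by -0.12 to 0.15. Genes with few counts, such as GSTU4, GSTU9, GSTU10 and GSTU11 in Mock leaves, have wide intervals at this depth.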
